A study of Arabidopsis thaliana and Arabidopsis lyrata subsp. lyrata and Arabidopsis halleri subsp. gemmifera with 10 samples.

Results

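Mature leaves of A. lyrata ssp. lyrata were compared with mature leaves of A. thaliana on 4 of the 10 Affymetrix ATH1 arrays of the series. The arrays were taken by their sample titles, 2 for A. lyrata and 2 for A. thaliana, and all 22746 probe sets other than the array's own controls were described. A. lyrata is a perennial, self-incompatible relative of the annual A. thaliana, which was represented by Col. Leaves of both species were collected before flowering from plants kept at 22 C with 16 h of light and 8 h of dark. Each sample gave 500 ng of total RNA for labelling with biotin. The labels call the 2 arrays of a species biological replicates, and do not say how many plants went into an array, how old they were or where the A. lyrata plants came from. Arrays of A. halleri ssp. gemmifera and of the hybrid between A. thaliana and A. lyrata, 2 each and grown alike, are used below for comparison, and the other hybrid entered only the shared estimate of the spread.

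The ATH1 array carries short probes that match A. thaliana sequence, and each probe set reports a gene, a gene family or a transcript. A transcript of A. lyrata whose sequence differs from the probes binds them less well. A lower signal in A. lyrata can therefore come with fewer transcripts or with poorer binding, and these cannot be told apart here. In whole leaves, fewer cells of a type and less RNA per cell cannot be told apart either. Signals are linear intensities in arbitrary units, and signals of different probe sets are not set against each other. Differences are given as log2(A. lyrata) minus log2(A. thaliana) ± SE from limma's fit to log2(signal + 9.24), where the added 9.24 damps differences of weak probe sets. A probe set was called when its Benjamini-Hochberg adjusted p over all 16656 tested probe sets was below 0.05, and "rose" and "fell" are used of called probe sets alone.

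The deposited arrays were on unequal scales, with trimmed means of 32.77 and 24.33 in A. lyrata against 500.1 and 136.4 in A. thaliana, so each array was first scaled to a 2% trimmed mean of 500. After scaling, the 18 spike-in control probe sets, which read RNA added in the laboratory, had geometric means of 7568 and 8329 in A. lyrata against 2471 and 1924 in A. thaliana. The median signal was 186.6 and 188.5 in A. lyrata against 142.6 and 152.5 in A. thaliana. The 100 brightest probe sets held 27.5% and 27.6% of the summed signal in A. lyrata, against 14.6% and 13% in A. thaliana. A control probe set for 25S ribosomal RNA read 1705 and 1805 in A. lyrata against 106 and 298 in A. thaliana. All directions below are relative to the average leaf signal of an array. Scaling to the spike-in controls instead moved the median log2 difference of all tested probe sets from 0.31 to -1.48, scaling to the median moved it to -0.02 and quantile normalization to 0.15.

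The leaf label was checked against markers of leaf and of other organs, few of which had a named probe set. The Rubisco activase gene RCA, a mesophyll marker, was bright on all 4 arrays. The sum of 3 root markers was 405 and 282 in A. lyrata against 118 and 79.2 in A. thaliana. The pollen gene AMS was at 4.86 and 5.02 in A. lyrata against 30.7 and 11.1 in A. thaliana, and no seed marker had a named probe set. Among guard cell markers, SPCH read 11.5 and 10.3 in A. lyrata against 3.77 and 3.97 in A. thaliana, and MUTE 7.56 and 6.05 in A. lyrata against 3.81 and 1.69 in A. thaliana. Whether other cell types contributed to any difference below was not tested.

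Of the 16656 tested probe sets, 4293 rose in A. lyrata, which is 25.8% of them, and 2868 fell, which is 17.2%. Both A. lyrata arrays lay above both A. thaliana arrays for 7031 probe sets (42.2%) and below both for 4574 (27.5%). The other 6090 probe sets were too dim in every group to be tested. A gene bright in a single species was tested only because of that species, so the filter fixed its direction. Among genes named below, this held for BSMT1, GH9B16, BGLU28, PYK10, IAA30 and CDC27a, bright in A. lyrata alone. UGT78D3, iqd15, AT1G72125, NRAMP5, ALC, BRL1 and ACT12 were also bright in A. lyrata alone. The filter likewise fixed the direction of QQS and SUFE2, bright in A. thaliana alone, among others. Most calls were of at least 2-fold, with 4038 higher and 2683 lower. At 16-fold or more the balance was the other way, with 133 higher and 267 lower, and at 256-fold or more 8 were higher and 7 lower. The median absolute difference between the species was 1.06 on the log2 scale, against 0.39 between the A. lyrata arrays and 0.59 between the A. thaliana arrays. On the spike-in scale 497 probe sets rose and 9820 fell, with median scaling 3009 rose and 3841 fell, and with only the 4 arrays in the fit 2671 rose and 1819 fell.

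Among called genes with a name, the largest rise was that of CSLA01 (AT4G16590), which belongs to the family of mannan synthases. It read 5234 and 3919 in A. lyrata against 2.83 and 3.8 in A. thaliana, a difference of 8.50 ± 0.57 (adjusted p = 2.22e-05). CHAT (AT3G03480), which acetylates hexenol to a green leaf volatile, read 5738 and 4845 in A. lyrata against 31.7 and 21.6 in A. thaliana (7.21 ± 0.42, adjusted p = 1.17e-05). BSMT1 (AT3G11480), a methyltransferase that makes volatile methyl salicylate and methyl benzoate, was at 612 and 331 in A. lyrata against 6.49 and 2.62 in A. thaliana (5.07 ± 0.73). For these 3 genes the A. thaliana arrays were near the bottom of the array's range and the A. lyrata arrays far above them. PDF1.2b (AT2G26020), a plant defensin of the jasmonate and ethylene response, reached 14187 and 30626 in A. lyrata against 344 and 131 in A. thaliana, on a probe set that may also bind other defensin transcripts. BUB3.2 (AT1G49910), a homologue of a spindle checkpoint protein, was at 976 and 756 in A. lyrata against 8.84 and 33.6 in A. thaliana (4.96 ± 0.67). These groups of arrays did not overlap either, which the rule for naming required of all 24 largest rises and falls, here and below.

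The chloroplast genes rpoB, ycf3 and petG were also among the 12 largest rises and are described with their genomes below. TBL36 (AT3G54260), of a family that acetylates wall polysaccharides, was at 1152 and 1266 in A. lyrata, and its A. thaliana arrays lay far apart at 112 and 3.42. UGT85A3 (AT1G22380), a sugar transferase of small molecules, read 763 and 470 in A. lyrata against 23.7 and 5.63 in A. thaliana (4.78 ± 0.50). BGLU43 (AT3G18070), a beta-glucosidase, read 313 and 424 in A. lyrata against 6.75 and 2.62 in A. thaliana (4.76 ± 0.49). Of the cytochrome P450 genes CYP71B22 (AT3G26200) rose most, with 1123 and 992 in A. lyrata against 104 and 5.08 in A. thaliana (4.73 ± 0.75). Signals under the offset have little order among themselves, so the folds of these genes depend on it. With the offset at 2.31 in place of 9.24 the fold of 5 of the 24 genes grew by more than 1.5 times, all of them rises, namely CSLA01 (808-fold against 362-fold), BSMT1 (68.7 against 33.6), TBL36 (47.2 against 31), UGT85A3 (41.8 against 27.5) and BGLU43 (54.8 against 27.1). With the offset at 32 the folds of 15 of the 24 shrank by more than 1.5 times, 9 of them rises and 6 falls, as for CSLA01 (129-fold), CHAT (90.8 against 149) and BSMT1 (13.2).

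The largest fall among named genes was that of CML38 (AT1G76650), a calmodulin-like protein of wound and low-oxygen responses. It read 46.1 and 7.53 in A. lyrata against 1833 and 5763 in A. thaliana (-6.74 ± 0.73, adjusted p = 0.000207). QQS (AT3G30720), an A. thaliana orphan gene that affects leaf starch, read 12 and 16.3 in A. lyrata against 1180 and 3805 in A. thaliana (-6.51 ± 0.72). COR15A (AT2G42540), a chloroplast protein that protects membranes in the cold, read 116 and 28.7 in A. lyrata against 12117 and 2374 in A. thaliana (-6.28 ± 0.75). In these 3 genes the A. thaliana arrays differed from each other by several fold, yet each lay far above both A. lyrata arrays. PMEAMT (AT1G48600), a methyltransferase on the way to phosphocholine, read 193 and 24.9 in A. lyrata against 6560 and 3702 in A. thaliana (-5.89 ± 0.70). ECS1 (AT1G31580), a cell wall protein, read 830 and 530 in A. lyrata against 33464 and 34720 in A. thaliana (-5.66 ± 0.29, adjusted p = 7.43e-06). Its 2 A. thaliana arrays were nearly equal.

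RING1 (AT5G10380), a ubiquitin ligase linked to cell death, read 171 and 263 in A. lyrata against 8373 and 12898 in A. thaliana (-5.56 ± 0.46). CHI (AT2G43570), a chitinase, was at 70.8 and 60.5 in A. lyrata against 2876 and 1866 in A. thaliana (-4.96 ± 0.47). GLR2.7 (AT2G29120), a glutamate receptor-like channel, was at 17.6 and 25.5 in A. lyrata against 1911 and 1643 in A. thaliana (-5.86 ± 0.58). All 3 had A. lyrata signals that varied little and lay well under the A. thaliana ones. SUFE2, a protein of iron-sulfur cluster assembly, fell by 5.53 on the log2 scale, the ubiquitin-specific protease UBP23 by 4.98, the drought-induced linker histone HIS1-3 by 4.95 and the quinone reductase NQR by 4.82. With the offset at 32 the falls that shrank by more than 1.5 times included CML38 (59.2-fold against 107-fold), QQS (46.8 against 91.4) and SUFE2 (23.5 against 46.1). UBP23 had 9.21 and 54.4 in A. lyrata against 1741 and 657 in A. thaliana, so the arrays of each species differed too.

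**Figure D1:**
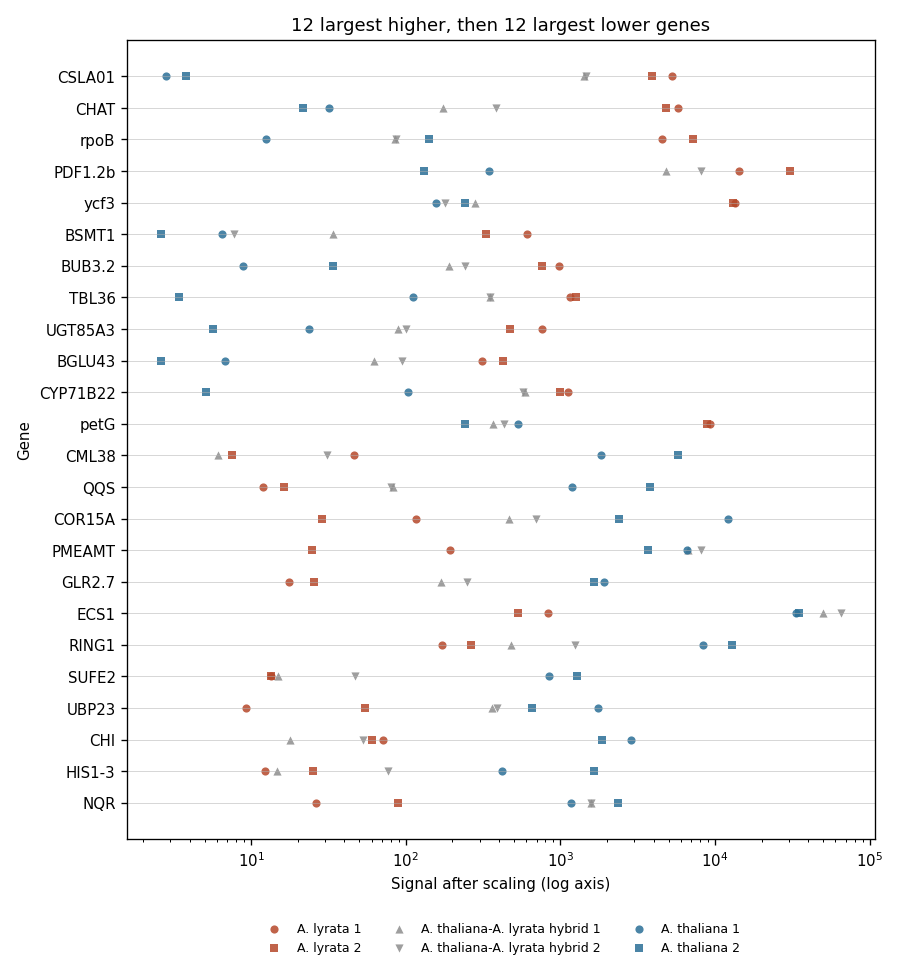
Signal after scaling (log axis) of the 12 genes with the largest rise and, below them, the 12 with the largest fall, with 1 point per array of A. lyrata, the A. thaliana-A. lyrata hybrid and A. thaliana. The A. lyrata and A. thaliana points do not overlap in any gene, and the hybrid points lie near either species or between them.

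Genes that the tables here name by locus alone were not part of that ranking, and 5 with large differences in each direction follow. AT3G05400 read 6675 and 7296 in A. lyrata against 9.89 and 1.63 in A. thaliana (8.92, adjusted p = 1.06e-05). AT1G31690 read 20146 and 18957 in A. lyrata against 72.9 and 43.7 in A. thaliana (8.21), and AT1G36240 rose by 7.94, AT1G72140 by 6.98 and AT3G46490 by 6.61. On the lower side AT5G38980 was at 66.1 and 12.2 in A. lyrata against 23122 and 17071 in A. thaliana (-8.95), and AT2G41090 at 54.3 and 96.6 against 28729 and 26750 (-8.40). AT1G23130 fell by 8.83, and the differences of AT5G52760 and AT1G76960 were -8.33 and -8.12. The A. thaliana arrays of AT1G76960 were far apart, at 1294 and 13607, and so were the weak ones of AT3G46490, at 54.1 and 3.53. The species overlapped in none of the 10 genes, because only genes whose arrays do not overlap could be picked.

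Chloroplast genomes encode the core of both photosystems, part of the cytochrome b6f, ATP synthase and NDH complexes, a bacterial-type RNA polymerase and some ribosomal proteins. Of 68 tested chloroplast-encoded genes 44 rose and 4 fell in A. lyrata, with a median of 1.61, against 2307 rises and 1523 falls among 9068 nuclear genes with a median of 0.33. By complex, 13 of 20 photosystem genes rose and 0 fell, as did 9 and 0 of 12 genes of cytochrome b6f and ATP synthase. Of the 15 ribosomal protein genes 12 rose and 2 fell, and of the 9 NDH genes 3 rose and 2 fell. On the spike-in scale these counts were 2 higher and 6 lower, 1 and 3, 1 and 2, and 1 and 5, and the medians of all 4 groups were below 0. The medians of photosystem (-0.10), cytochrome b6f and ATP synthase (-0.35) and ribosomal protein genes (-0.06) then stayed above the -1.48 of all probe sets. That of the NDH genes (-1.60) lay below it.

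ycf3, which is needed to assemble photosystem I, read 13485 and 13079 in A. lyrata against 156 and 240 in A. thaliana (6.03 ± 0.30, adjusted p = 5.81e-06). petG, a small subunit of cytochrome b6f, read 9220 and 8911 in A. lyrata against 535 and 240 in A. thaliana (4.62 ± 0.38). psbT, of photosystem II, read 28808 and 18486 in A. lyrata against 2773 and 1365 in A. thaliana (3.56 ± 0.40). The A. lyrata arrays were close together for ycf3 and petG and further apart for psbT. In all 3 genes they were at least several fold above A. thaliana. Subunits of the ATP synthase head rose less, atpA by 2.24 ± 0.31 and atpB by 1.94 ± 0.26. atpB read 113228 and 143943 in A. lyrata against 34014 and 32659 in A. thaliana, and with quantile normalization its difference was 0.20 and that of atpA 1.03, neither called. The photosystem II genes psbE (2.69 ± 0.44) and psbN (2.73 ± 0.34) rose as well.

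Genes of the plastid's own expression machinery were split. rpoB, the beta subunit of the plastid-encoded RNA polymerase, read 4502 and 7204 in A. lyrata against 12.5 and 142 in A. thaliana (6.64 ± 0.70, adjusted p = 0.00018). rpoC2 rose by 2.17 ± 0.31, while rpoA (0.36 ± 0.35) and rpoC1 (0.33 ± 0.30) were not called. All 4 differences were positive, and without A. thaliana replicate 1 limma called 3 of them higher. The ribosomal protein gene rpl14 was at 8893 and 10370 in A. lyrata against 693 and 1265 in A. thaliana (3.35 ± 0.36), and rpl16 rose by 2.66 ± 0.31. By contrast rps4 was at 1498 and 1759 in A. lyrata against 9656 and 8468 in A. thaliana (-2.47 ± 0.28), and rps16 fell by 0.98, so that 2 of these genes fell, or 1 without A. thaliana replicate 2 or A. lyrata replicate 1. The arrays of the species did not overlap for rps4, as the rule for naming required. Its direction was opposite to that of most ribosomal protein genes.

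Subunits of the NDH complex, which returns electrons to the plastoquinone pool, also went both ways. ndhH read 3942 and 4139 in A. lyrata against 63.5 and 588 in A. thaliana (4.28 ± 0.79), with the A. thaliana arrays apart. ndhG rose by 2.48 ± 0.28 and ndhC by 1.29 ± 0.28. ndhD read 1372 and 1152 in A. lyrata against 8345 and 7466 in A. thaliana (-2.64 ± 0.25), and ndhJ fell by 1.90. Each of these genes had arrays that did not overlap, which the rule for naming required of ndhH, ndhG and ndhD. Calls of psbE, psbN, atpA, atpB, ndhG, rpoC2 and rpl16 were lost on the spike-in scale, with differences of 0.83, 0.89, 0.38, 0.07, 0.63, 0.32 and 0.80.

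**Figure D2:**
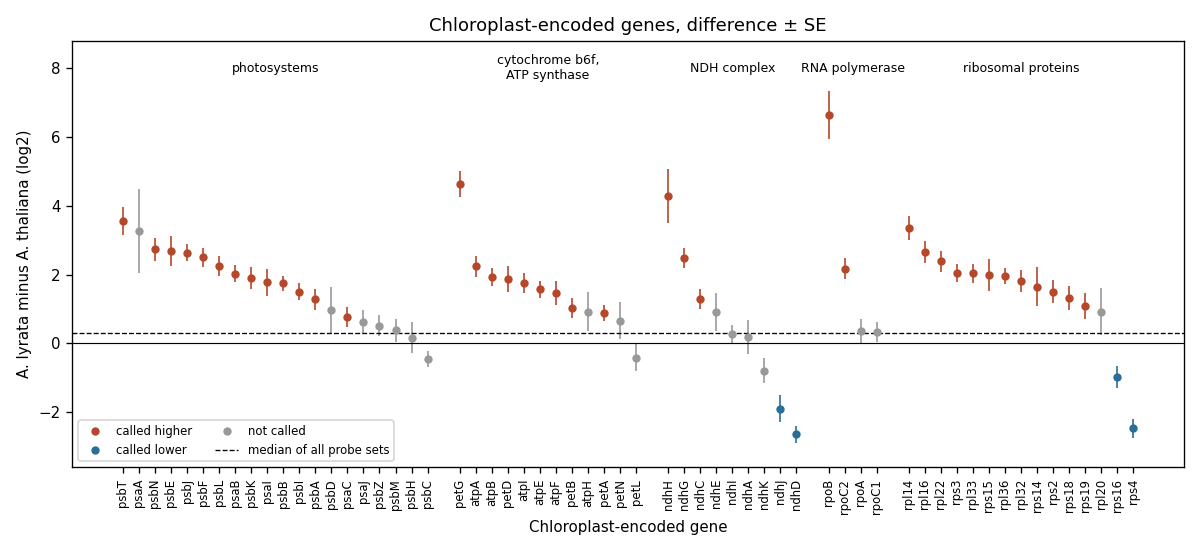
Difference between A. lyrata and A. thaliana (log2) ± SE for the tested chloroplast-encoded genes of 5 groups, set side by side by complex and ordered by size within it. Most points lie above the dashed median of all probe sets (0.31), while ndhD, ndhJ, rps4 and rps16 are called lower.

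Mitochondrial genomes encode parts of the respiratory chain and of cytochrome c maturation. Of 14 tested mitochondrial genes 6 rose and 0 fell, with a median of 1.06. Of all probe sets 25.8% rose and 17.2% fell, with a median of 0.31. ccb382, for cytochrome c maturation, read 1583 and 1533 in A. lyrata against 405 and 322 in A. thaliana (2.08 ± 0.27). orfX rose by 2.07 ± 0.32 on a probe set that may bind more than 1 transcript. nad4, a complex I subunit, rose by 1.47 ± 0.35, though its difference was -0.38 on the spike-in scale and its call was lost without A. lyrata replicate 1. Without that array 2 rises were called in the list, without A. thaliana replicate 2 there were 3, and on the spike-in scale 0 were called higher and 4 lower.

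Photosynthesis also needs many nuclear genes. Their counts are to be read against the 25.8% of all probe sets that rose and the 17.2% that fell. Of 7 nuclear genes of the light reactions 4 rose and 1 fell, with a median of 1.54 that was -0.33 on the spike-in scale, and no fall was called without A. thaliana replicate 2 or A. lyrata replicate 2. PSAN, a photosystem I subunit, read 99591 and 101653 in A. lyrata against 20650 and 11355 in A. thaliana (2.72 ± 0.32), and remained called on the spike-in scale (0.85). PSBY, of photosystem II, rose by 2.32 ± 0.26 but was not called on the spike-in scale (0.46), and ATPC1, the gamma subunit of the ATP synthase, by 1.86 ± 0.26 but with -0.00 on the spike-in scale. RCA read 73049 and 66802 in A. lyrata against 31101 and 26882 in A. thaliana (1.27 ± 0.24), and its direction turned both on the spike-in scale (-0.59) and with quantile normalization (-0.28). The other Calvin cycle genes measured, SBPASE (0.15 ± 0.37) and PRK (-0.70 ± 0.27), were not called. HPR, the photorespiratory hydroxypyruvate reductase, read 80844 and 93990 in A. lyrata against 21525 and 18910 in A. thaliana (2.11 ± 0.25), and was not called on the spike-in scale (0.25) or with quantile normalization (0.57).

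In chlorophyll synthesis 2 of 8 genes rose and 0 fell, a share close to that of all probe sets. PORB, which reduces protochlorophyllide in the light, read 3793 and 3129 in A. lyrata against 850 and 404 in A. thaliana (2.53 ± 0.37, and 0.69 with no call on the spike-in scale). HEME1, a uroporphyrinogen decarboxylase, rose by 1.58 ± 0.32, with -0.26 on the spike-in scale.

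Cell wall genes rose in several lists, to be read against the 25.8% of all probe sets that rose and the 17.2% that fell. The wall of a growing leaf is built of cellulose, hemicelluloses and pectin, which synthases lay down and hydrolases and expansins loosen. Of 12 cellulose and hemicellulose synthesis genes 8 rose and 0 fell, with a median of 1.41. Without A. lyrata replicate 1 the rises were 4 and without replicate 2 they were 5. GUT2, a glucuronoxylan synthesis gene, read 881 and 527 in A. lyrata against 179 and 142 in A. thaliana (2.04 ± 0.34). CSLA03, another mannan synthase gene, read 389 and 124 in A. lyrata against 85.2 and 24.3 in A. thaliana (2.03 ± 0.67), and lost its call without A. thaliana replicate 2 or without A. lyrata replicate 1. Besides CSLA01, the largest rises in this group were thus those of GUT2 (4.1-fold) and CSLA03 (4.09-fold), among called genes whose arrays did not overlap. GUT2 (0.23) and CSLA03 (0.37) were not called on the spike-in scale, nor CSLA03 with quantile normalization (1.36), and on the spike-in scale the list median was -0.36, with 1 gene higher and 1 lower.

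Family 9 endoglucanases, which cut glucan chains, rose in 7 of 9 tested genes and fell in 0, with a median of 2.44. Another 6 genes were too dim to be tested, and GH9B16 was tested only because it was bright in A. lyrata. GH9B16 read 177 and 296 in A. lyrata against 1.84 and 2.46 in A. thaliana (4.39 ± 0.63), GH9B5 373 and 348 against 5.62 and 14.9 (4.28 ± 0.51), and GH9B13 200 and 225 against 4.7 and 3.7 (4.04 ± 0.52). The A. thaliana signals of all 3 were close to nothing, and the A. lyrata signals moderate. On the spike-in scale 3 of these genes were still higher, 0 lower, and the median 0.72. With 1 array left out 4 to 6 genes were called higher, 4 without A. thaliana replicate 1 or without either A. lyrata array.

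Among xyloglucan, expansin and pectin genes 7 of 20 rose and 3 fell (median 1.23, -0.54 on the spike-in scale), against 25.8% and 17.2% of all probe sets. Another 14 were too dim to be tested. XTH33, a xyloglucan hydrolase, was at 142 and 169 in A. lyrata against 2.97 and 1.98 in A. thaliana (3.81 ± 0.70). The beta-expansin EXPB1 was at 168 and 162 in A. lyrata against 7.51 and 4.61 in A. thaliana (3.52 ± 1.06), and its call was lost without either A. lyrata array or without A. thaliana replicate 2, on the spike-in scale and with quantile normalization (2.89). EXGT-A3, a xyloglucan endotransglucosylase, went the other way, at 238 and 210 in A. lyrata against 2359 and 1290 in A. thaliana (-2.91 ± 0.40). Beta-glucosidases and related hydrolases rose in 8 of 14 genes and fell in 0 (median 1.39, -0.33 on the spike-in scale), with 5 rises left without A. lyrata replicate 1. In that list another 9 genes were too dim to be tested. BGLU28 read 172 and 532 in A. lyrata against 3.57 and 19.9 in A. thaliana (4.02 ± 0.72), and BGLU15 183 and 387 against 34.6 and 5.8 (3.43 ± 0.73). BGLU28, like PYK10, was tested only because it was bright in A. lyrata. PYK10, the beta-glucosidase of root ER bodies, was at 93.7 and 136 in A. lyrata against 3.19 and 3.04 in A. thaliana (3.31 ± 0.96), and its call was lost when either A. thaliana array or A. lyrata replicate 1 was left out, on the spike-in scale (2.14) and with quantile normalization (2.63).

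In the photosystem, cytochrome b6f and ATP synthase, mitochondrial, wall synthesis, endoglucanase, beta-glucosidase and auxin lists, limma called 0 genes lower, and 0 were lower at an unadjusted p below 0.05. Other settings did call falls there, with 1 photosystem gene lower under quantile normalization and under median scaling, and 1 auxin gene lower under median scaling. On the spike-in scale falls were called in each of these lists but the endoglucanases. Without A. thaliana replicate 2, 1 gene was called lower in the cytochrome b6f and ATP synthase list and 1 in the beta-glucosidase list, as was 1 in the second list without A. lyrata replicate 2.

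**Figure D3:**
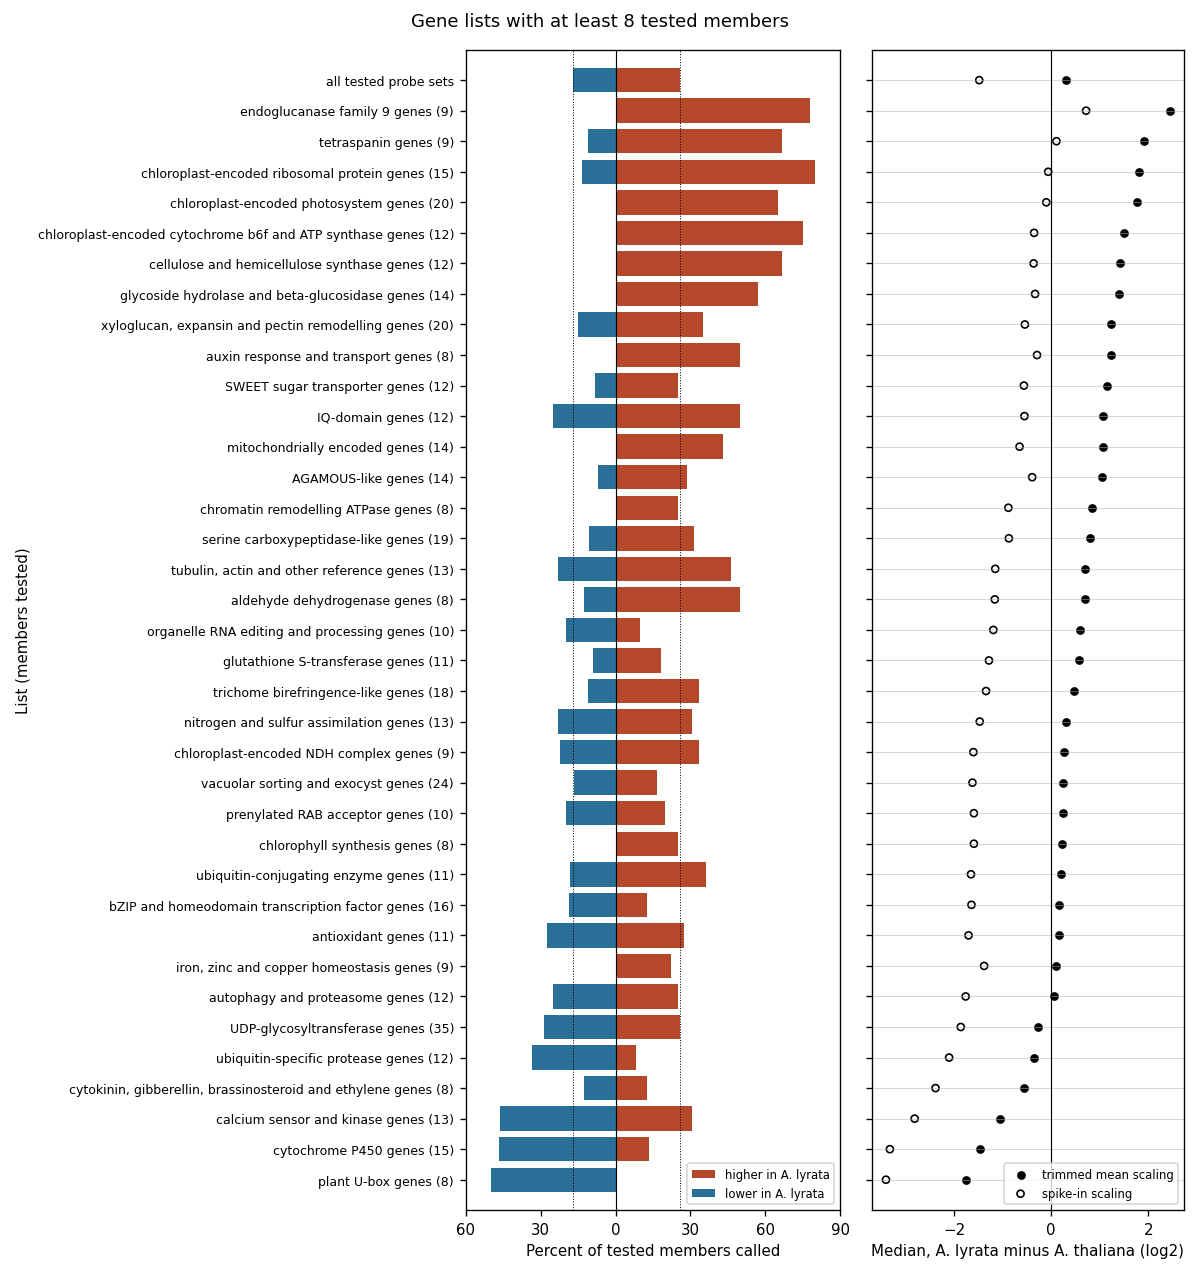
For each list with at least 8 tested members, the percent of members called higher (right of 0) or lower (left of 0) in A. lyrata, with dotted lines at the 25.8% and 17.2% of all probe sets, and the median difference (log2) under the main and the spike-in scaling. Endoglucanase, tetraspanin, wall synthesis and the chloroplast lists other than NDH stand at the top, and U-box, cytochrome P450 and calcium lists at the bottom.

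Glucosinolates are sulfur-rich defence compounds of the cabbage family, built from methionine or tryptophan. BCAT4, which starts the methionine route, read 299 and 193 in A. lyrata against 9431 and 3398 in A. thaliana (-4.51 ± 0.50, adjusted p = 0.000241). UGT74B1, which adds the glucose of the core structure, read 183 and 116 in A. lyrata against 2048 and 1400 in A. thaliana (-3.46 ± 0.33). AOP1 fell by 2.11, and AOP3, of the same side-chain gene family, rose by 1.93 ± 0.61. Without A. thaliana replicate 2 neither AOP gene was called, nor was AOP1 without A. lyrata replicate 2 or AOP3 without A. lyrata replicate 1, on the spike-in scale (0.45) or with quantile normalization. APS4, a sulfate-activating enzyme, read 165 and 480 in A. lyrata against 3021 and 3166 in A. thaliana (-3.41 ± 0.48).

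Flavonoids and lignin precursors come from the phenylpropanoid pathway. UGT78D2, a flavonoid 3-glucosyltransferase, read 520 and 488 in A. lyrata against 2710 and 4932 in A. thaliana (-2.84 ± 0.31). Its relative UGT78D3, an arabinosyltransferase, was at 336 and 322 in A. lyrata against 3.26 and 11.2 in A. thaliana (4.40 ± 0.80). The rhamnosyltransferase UGT78D1 rose by 1.65 ± 0.42, with -0.21 on the spike-in scale and no call without A. lyrata replicate 1. CCOAMT, of the caffeoyl-CoA methyltransferase family, was at 842 and 1179 in A. lyrata against 218 and 36.6 in A. thaliana (3.30 ± 0.59), and HCT, of lignin precursor synthesis, fell by 1.83. These neighbours in a pathway, and members of a gene family, thus moved in opposite directions.

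Families that modify small molecules were large enough to count. Of 35 sugar transferase genes of the UGT family 9 rose and 10 fell (median -0.26), against 25.8% and 17.2% of all probe sets. UGT87A2 fell most, with 157 and 94.5 in A. lyrata against 2070 and 3033 in A. thaliana (-4.26 ± 0.37). With either A. lyrata array left out 5 of the 9 rises were called. Of 15 cytochrome P450 genes, most of them of the CYP71B subfamily, 2 rose and 7 fell (median -1.47), with 1 rise left without A. thaliana replicate 2 or A. lyrata replicate 1. CYP71B36 read 35.5 and 7.77 in A. lyrata against 508 and 224 in A. thaliana (-3.65 ± 0.73), and CYP78A9 43.9 and 15.7 against 273 and 649 (-3.56 ± 0.57). Of 11 glutathione S-transferase genes 2 rose and 1 fell, with GSTU27 at 13612 and 14481 in A. lyrata against 1193 and 1404 in A. thaliana (3.43 ± 0.22), GSTF4 2.16 ± 0.38 higher and GSTU16 lower by -3.47 ± 0.49. Among 11 antioxidant genes 3 rose and 3 fell, shares near the 25.8% and 17.2% of all probe sets, the methionine sulfoxide reductases MSRB3 (2.83 ± 0.34) and MSRB5 (2.24 ± 0.27) against MSRB9 (-3.40 ± 0.66). Without A. thaliana replicate 1 or A. lyrata replicate 2 only 1 antioxidant gene was called lower, and without either A. thaliana array 2 transferase genes were. On the spike-in scale GSTF4 (0.42), MSRB3 (0.99) and MSRB5 (0.39) were not called.

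In the lists of calcium signalling and of U-box ligases falls outnumbered rises. Calcium sensors and channels rose in 4 of 13 genes and fell in 6 (median -1.05), against 25.8% and 17.2% of all probe sets. CML23, a calmodulin-like protein, read 19.5 and 83.1 in A. lyrata against 564 and 826 in A. thaliana (-3.75 ± 0.69), CML37 fell by 3.57, and the channel gene GLR3.6 rose by 2.64. Plant U-box ubiquitin ligases, several of which restrain immune and drought responses, fell in 4 of 8 genes and rose in 0 (median -1.76). PUB19 was at 431 and 128 in A. lyrata against 1980 and 4263 in A. thaliana (-3.57 ± 0.64), PUB22 fell by 2.98, and PUB23 by 3.74 with no call without A. thaliana replicate 2 or A. lyrata replicate 2. WRKY53, a regulator of leaf senescence, read 79.7 and 137 in A. lyrata against 955 and 1623 in A. thaliana (-3.46 ± 0.49), and was the 1 called gene of 6 in its family, where without A. thaliana replicate 1 a second fall was called. The other WRKY genes measured lay between -0.93 and 0.79.

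SAG101, a partner in immune receptor signalling, was at 90.7 and 53.6 in A. lyrata against 374 and 561 in A. thaliana (-2.56 ± 0.54). BIK1, a kinase of pattern-triggered immunity, was called at -1.05 ± 0.37 (adjusted p = 0.044) but not with any 1 of the 4 arrays left out. Only 4 cold-regulated genes were tested, of which 3 fell and 0 rose, against 17.2% and 25.8% of all probe sets. COR15B was at 228 and 228 in A. lyrata against 1552 and 644 in A. thaliana (-2.09 ± 0.42), and COR47, a dehydrin, fell by 1.51 with no call without A. thaliana replicate 2 or A. lyrata replicate 1. AT5G48570, listed with heat shock genes, fell by 1.97, and ORA47, an ERF factor of jasmonate signalling, was at 511 and 175 in A. lyrata against 1902 and 7788 in A. thaliana (-3.64 ± 0.77). In the jasmonate list, which does not hold ORA47, PDF1.2b was the 1 called of 7 genes, and PDF1.2 was at -1.54 ± 0.62. That count is to be read against the same shares of all probe sets. A fall was called in that list without either A. thaliana array and without A. lyrata replicate 2, and a second rise without A. thaliana replicate 1 or A. lyrata replicate 1.

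Hormone and regulator genes were taken list by list. Of 8 auxin genes 4 rose and 0 fell (median 1.23, -0.29 on the spike-in scale), the fourth being YUC2 of auxin synthesis (1.20). Of all probe sets 25.8% rose and 17.2% fell. Another 8 auxin genes were too dim to be tested, and IAA30, 1 of the 4 rises, was tested only because it was bright in A. lyrata. The repressor gene IAA29 read 553 and 250 in A. lyrata against 38.5 and 45.6 in A. thaliana (2.90 ± 0.62), GH3.9 rose by 2.61 ± 0.52, and IAA30 by 2.70 ± 0.82 with no call without A. thaliana replicate 1. None of the 3 was called on the spike-in scale (1.19, 1.09 and 1.30). The cytokinin response regulator RR16 was at 278 and 161 in A. lyrata against 915 and 2248 in A. thaliana (-2.71 ± 0.52). BRL1, a brassinosteroid receptor, was called at 1.32 ± 0.44 but not with any 1 of the 4 arrays left out, and read -0.40 on the spike-in scale. HVA22C, of an abscisic acid-related family, rose by 1.69 ± 0.36, with -0.14 on the spike-in scale. BZIP60, of the unfolded protein response, fell, with 819 and 481 in A. lyrata against 2919 and 2935 in A. thaliana, and the fruit regulator ALC rose by 2.06 ± 0.46, with no call on the spike-in scale (0.48) or with quantile normalization (1.16).

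FMA, the guard cell regulator, was at 353 and 340 in A. lyrata against 145 and 131 in A. thaliana (1.27 ± 0.28, and -0.51 on the spike-in scale), and TRY, an inhibitor of trichome fate, at 277 and 212 against 999 and 706 (-1.76 ± 0.33). Cell division genes rose in 3 of 6 cases and fell in 0, against 25.8% and 17.2% of all probe sets, and on the spike-in scale 1 rose. CDC27a, 1 of the 3, was tested only because it was bright in A. lyrata, so the filter fixed its direction. The mitotic kinase gene AUR2 was at 217 and 231 in A. lyrata against 41.5 and 4.79 in A. thaliana (3.13 ± 0.59), CDC27a rose by 3.26 ± 0.73, and AUR1 by 1.83 ± 0.45 with no call without A. lyrata replicate 2. CDC27a (1.70) and AUR1 (0.12) were not called on the spike-in scale. Histone genes fell in 2 of 6 cases, HON4, a linker histone-like gene, by 3.08 and the histone H2B gene HTB4 by 2.24. Of 6 genes of flowering time and vernalization limma called 0, with 1 at an unadjusted p below 0.05 and 1 called without either A. thaliana array, and the median was 0.76. The AGAMOUS-like genes, a family of MADS factors added to the lists later, rose in 4 of 14 and fell in 1. Their share of rises was near the 25.8% of all probe sets. AGL19 read 393 and 445 in A. lyrata against 34.3 and 35.8 in A. thaliana (3.27 ± 0.53), and AGL87 16.6 and 5.44 against 483 and 285 (-4.29 ± 0.47).

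Transport and storage genes were described by list, to be read against the 25.8% of all probe sets that rose and the 17.2% that fell. The metal transporter gene NRAMP5 was at 325 and 202 in A. lyrata against 10.4 and 27.1 in A. thaliana (3.31 ± 0.56). ZIP6, a zinc transporter, was called at 1.24 ± 0.37, with -0.57 on the spike-in scale and no call without A. thaliana replicate 2 or either A. lyrata array. These were the 2 called of 9 metal homeostasis genes, and 2 others were called lower without A. thaliana replicate 2. APL4, a subunit of the starch synthesis enzyme ADP-glucose pyrophosphorylase, rose by 2.93 ± 0.63 and was the 1 called of 7 starch genes, with 1.19 and no call on the spike-in scale, while without A. thaliana replicate 2 there were 3 rises. Of 13 nitrogen and sulfur genes 4 rose and 3 fell, AT1G72125 by 3.06 ± 0.49 and AT1G27040 by 2.85 ± 0.67, with 2 rises without A. lyrata replicate 1.

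Of 12 genes for autophagy and the proteasome 3 rose and 3 fell, shares near the 25.8% and 17.2% of all probe sets, and on the spike-in scale 0 rose and 11 fell. On the main scale the 3 falls were all of ATG8, the ubiquitin-like protein that coats autophagosomes. The gene listed as APG8A (AT4G21980) read 103 and 103 in A. lyrata against 1383 and 2853 in A. thaliana (-4.16 ± 0.38, adjusted p = 8.84e-05). The one listed as APG8H (AT3G15580) read 365 and 442 in A. lyrata against 3902 and 8447 in A. thaliana (-3.81 ± 0.36), and ATG8B fell by 2.91. For both, each A. lyrata array lay far under each A. thaliana array. Another member, ATG8F, was called at 0.70 ± 0.25, and ATG8C (0.19 ± 0.33), ATG8D (-0.19 ± 0.30) and ATG8E (0.37 ± 0.48) were not called. Without either A. lyrata array 1 rise was called in the list, and the 3 falls were called whichever array was left out.

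Genes often used as constant references also differed. Of 13 tubulin, actin and other such genes 6 rose and 3 fell, against 25.8% and 17.2% of all probe sets, while on the spike-in scale 1 rose and 8 fell. TUB1 read 409 and 488 in A. lyrata against 21.4 and 20.4 in A. thaliana (3.92 ± 0.36), and TUB7 rose by 2.79 ± 0.50, with 0.96 and no call on the spike-in scale. TUA6 fell by 2.07, and TUB9 fell too, with 385 and 433 in A. lyrata against 2121 and 1292 in A. thaliana. ACT12 was called at 2.54 ± 0.88, but not without A. thaliana replicate 1 or A. lyrata replicate 2, on the spike-in scale (1.17) or with quantile normalization (1.75). PEX4 (0.70 ± 0.27), TUB6 (0.68 ± 0.25) and AT2G28390 (-0.58 ± 0.28) were not called.

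Further gene families were added to the lists after the gene names on the array had been seen. Their counts are to be read against the 25.8% of all probe sets that rose and the 17.2% that fell. Tetraspanins, membrane proteins that organise other proteins, rose in 6 of 9 genes and fell in 1 (median 1.92, 0.11 on the spike-in scale). TET10 read 1535 and 1929 in A. lyrata against 180 and 101 in A. thaliana (3.58 ± 0.50), and TET8 went the other way, at 1339 and 675 in A. lyrata against 3539 and 7497 in A. thaliana (-2.43 ± 0.45). IQ-domain genes, which bind calmodulin, rose in 6 of 12 and fell in 3 (median 1.07, -0.55 on the spike-in scale), iqd15 most at 3.14 ± 0.63, and without A. lyrata replicate 2 they rose in 3 and fell in 1. Trichome birefringence-like genes rose in 6 of 18 and fell in 2, with TBL26 at 19233 and 18550 in A. lyrata against 2244 and 1867 in A. thaliana (3.20 ± 0.32), with 3 rises without A. lyrata replicate 2 and 1 fall without A. lyrata replicate 1. Serine carboxypeptidase-like genes rose in 6 of 19 and fell in 2, with scpl33 highest at 3.03 ± 0.40, with 3 rises without A. thaliana replicate 2 or A. lyrata replicate 1 and 1 fall without A. thaliana replicate 1. Among ubiquitin enzymes UBC20, of cell cycle proteolysis, rose by 3.34 ± 0.39 and its paralogue UBC19 fell by 1.73. RALFL34, a signalling peptide, rose by 2.93 ± 0.33, and RALFL32 fell by 3.57.

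The A. thaliana arrays, deposited on unequal scales, also differed in content. Of the tested probe sets 1012 (6.08%) were at least 4-fold apart between them, against 777 (4.66%) between the A. lyrata arrays. Against replicate 1 alone 3891 probe sets were called higher and 2674 lower in A. lyrata, and against replicate 2 alone 4067 and 3026. Called in the same direction against each array were 2618 higher and 1890 lower, all of which were also called against both together. In opposite directions against the 2 arrays 61 were called.

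The 10 genes with a symbol whose A. thaliana arrays differed most, 5 in each direction, included genes of anthocyanin synthesis, photosystem I and starch synthesis. DFR, the dihydroflavonol reductase of anthocyanin synthesis, was at 278 and 180 in A. lyrata, 12.9 in A. thaliana replicate 1 and 13384 in replicate 2. UF3GT, an anthocyanin glycosyltransferase, was at 124 and 69.7 in A. lyrata, 21 in A. thaliana replicate 1 and 5444 in replicate 2. Both A. lyrata arrays lay between the A. thaliana arrays, and DFR was called higher against replicate 1 alone (3.39) and stood at -5.84 against replicate 2 alone. psaA, a core subunit of photosystem I, was at 23715 and 19992 in A. lyrata, 352 in A. thaliana replicate 1 and 14067 in replicate 2 (3.27 ± 1.23, adjusted p = 0.0559). APL3 was at 1051 and 1235 in A. lyrata, 90.8 in A. thaliana replicate 1 and 1726 in replicate 2. The clock gene GI, at 1033 and 1140 in A. lyrata, was at 162 and 1162 in A. thaliana (1.29 ± 0.68, adjusted p = 0.146, and -0.54 on the spike-in scale). It was called against replicate 1 alone (2.68) and read -0.10 against replicate 2 alone. In the other direction the expansin EXPA8 was at 70 and 237 in A. lyrata, 919 in A. thaliana replicate 1 and 21.6 in replicate 2, and the thionin THI2.2 at 212 and 99.9 in A. lyrata, 348 in A. thaliana replicate 1 and 4.69 in replicate 2. Of 5 flavonoid genes 1 rose and 1 fell, against 25.8% and 17.2% of all probe sets. Their median was -1.23, with 1.78 against A. thaliana replicate 1 alone and -3.27 against replicate 2 alone.

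**Figure D4:**
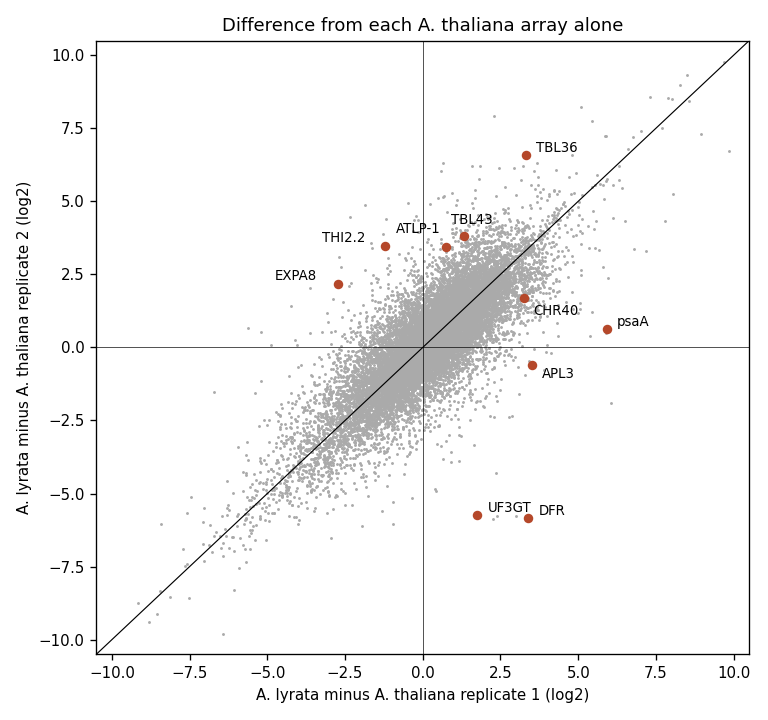
Difference of the A. lyrata mean from A. thaliana replicate 1 alone (horizontal axis, log2) and from replicate 2 alone (vertical axis, log2). Points are those of the 16656 tested probe sets that have a value against each array. The marked genes are the 10 with a symbol whose A. thaliana arrays differed most, 5 in each direction, and DFR and UF3GT lie above 0 on the horizontal and below 0 on the vertical axis.

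The second relative, A. halleri, was hybridised to the same type of array. Against A. halleri 1229 probe sets (7.38%) were called higher and 1354 (8.13%) lower in A. lyrata. With 1 array left out these counts were 485 to 615 and 502 to 957, every higher count and all lower ones but that without A. lyrata replicate 1 (957) moving by over 1.5 times, and on the spike-in scale they were 505 and 2751. Of the 24 genes with the largest differences from A. thaliana, 10 also differed between A. lyrata and A. halleri, 4 of them higher and 6 lower in A. lyrata. CHAT read 5738 and 4845 in A. lyrata against 83.4 and 129 in A. halleri (5.55, adjusted p = 8.75e-05), and BUB3.2 976 and 756 against 10 and 23.1 (5.12, adjusted p = 0.00144). CSLA01 (2.93) and BSMT1 (3.62) were higher in A. lyrata as well. CHI read 70.8 and 60.5 in A. lyrata against 2385 and 1492 in A. halleri (-4.67, adjusted p = 0.000464), HIS1-3 fell by 4.25, COR15A by 3.95, ECS1 by 2.73, UBP23 by 2.46 and NQR by 2.23. These 10 genes were called in both comparisons, which share the A. lyrata arrays. QQS was at 12 and 16.3 in A. lyrata against 17.3 and 4.7 in A. halleri (0.28, adjusted p = 0.827), and RING1 (-0.36), rpoB (0.22), ycf3 (0.38) and petG (-0.11) were not called between the relatives.

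In the hybrid, which carries genomes of both species, both arrays lay between those of A. lyrata and A. thaliana for 9 of the 12 largest rises and 6 of the 12 largest falls. Over all called probe sets that held for 50.7% of rises and 38.2% of falls, and the 24 genes were chosen for their wide gap between the species. CSLA01 was at 1420 and 1471 in the hybrid, well inside the gap. PMEAMT was at 6702 and 8127 and ECS1 at 50035 and 64808, above both A. thaliana arrays. CML38, by contrast, was at 6.12 and 31.1, as low as in A. lyrata, and CHI at 17.8 and 52.6. Of the 44 chloroplast genes that rose in A. lyrata, 41 had both hybrid arrays below both A. lyrata arrays, and 21 had both hybrid arrays above both A. thaliana arrays, which is 93.2% and 47.7%. Over all 4293 probe sets that rose these shares were 82.2% and 68%, and the difference was not tested. ycf3, for example, was at 282 and 180 in the hybrid, near its A. thaliana level, and ndhD at 10339 and 14140 was above it. AT5G38980 and AT2G41090, nearly without signal in A. lyrata, were at 24781 and 25820 and at 27691 and 39387 in the hybrid.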

How the data were processed

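Leaf RNA was measured on 10 ATH1 arrays, 2 for each of 5 groups, with groups and replicates taken from the sample titles. The authors deposited linear intensity signals, which came from GCOS and MAS5 per the submitters' processing notes. No genome build was needed for the signals, and the build behind the array's own annotation is not named in the sources used here. Before any test, every array was scaled to a 2% trimmed mean of 500, and 9.24, the 10th percentile of all values, was added before log2. Of 22746 probe sets that are not controls, 16656 whose mean reached 104 (the 40th percentile) in at least 1 group were tested with limma 3.58.1 in R 4.3.3 (lmFit, eBayes with a trend) on all 10 arrays, with Benjamini-Hochberg adjustment. A simulation on the same number of probe sets recovered 0% of changes of 1 on the log2 scale, 32% of 2, 70% of 3 and 76% of 4. It changed only a small part of the probe sets, while 7161 were called in the data. The adjusted threshold is stricter when few probe sets change, so these shares do not measure detection in the data.

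Platform annotation named 1 gene for 13513 probe sets, several for 503 and none for 8730, and 13436 of the first matched the gene table of assembly TAIR10.1. Named were the 12 largest rises and the 12 largest falls among called genes that have a symbol. Up to 3 called members of each list, and GI, were named too. Apart from GI, all of these had to have arrays that do not overlap, as did the locus-only genes. The 5 largest locus-only genes in each direction, and list members without a call, were chosen after their values were seen. The comparison and the gene lists were chosen with earlier results of these data known, and 16 lists were added after the annotation had been seen. No replicate came with a statement of how plants were sampled, so p-values measure the spread between these arrays, whose number limits the precision. Alternatives for scaling, offset, filter, spread, blocks, probe sets, threshold and left-out arrays are given at the end.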

Additional observations from a re-analysis of the deposited data

Results flagged for a closer look

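The spike-in control probe sets lie outside the leaf measurement. After every array was scaled to the same trimmed mean, their geometric mean signal was 3.64 times as high in A. lyrata (7568 and 8329) as in A. thaliana (2471 and 1924). The part of this difference in the leaf results was not tested beyond the spike-in scaling, whose values stand beside the results. No group had enough arrays for a test of single outlying arrays.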

How the results depend on the processing

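On the spike-in scale A. lyrata had 497 rises and 9820 falls against A. thaliana, 505 and 2751 against A. halleri, and 37 members of the gene lists were higher and 284 lower, against 186 and 96 on the main scale. With only the 4 arrays compared, 2671 and 1819 probe sets were called against A. thaliana. At an adjusted p below 0.01 the counts were 2196 and 1728 against A. thaliana, 456 and 495 against A. halleri, and 113 list members higher. With 1 array left out at a time the counts against A. thaliana ran from 3000 to 4067 higher and from 2247 to 3026 lower, those against A. halleri from 485 to 615 and from 502 to 957, and those of list members from 138 to 182 and from 78 to 105. With 1 array left out, 32 of the 155 called genes named by the rule lost their call under at least 1 such fit.

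Differences that turned negative on the spike-in scale were those of nad4 (-0.38), ATPC1 (-0.00), RCA (-0.59), HEME1 (-0.26), UGT78D1 (-0.21), ZIP6 (-0.57), HVA22C (-0.14), BRL1 (-0.40), FMA (-0.51), AT2G40620 (-0.01), AT4G38900 (-0.11), UBC22 (-0.24), ALDH10A9 (-0.42), ALDH22A1 (-0.64), NdhS (-1.22), CHR17 (-0.67), PRA1.F1 (-0.10), PRA7 (-0.33) and GI (-0.54). RCA turned to -0.28 with quantile normalization. GI turned to -0.10 without A. thaliana replicate 1, and to the same -0.10 with the class of deposited scale as a block. Only A. thaliana had arrays of both classes, so for this comparison these settings are the same check. Without A. thaliana replicate 2 the difference of GI was 2.68. With quantile normalization ATPC1 (0.69), BIK1 (-1.02), IAA30 (1.94) and BRL1 (0.68) were not called. The cause was not tested. In all, 2370 of 2614 values of named genes under the alternatives kept direction and call.

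With the replicate number as a block 4169 probe sets were higher and 2824 lower against A. thaliana, 1127 and 1267 against A. halleri, and 179 and 93 list members were called. Same-numbered arrays of 10 pairs of groups correlated between -0.13 and 0.26 in their deviations from the group means. The 1 pair above 0.1 was that of A. thaliana and its hybrid with A. lyrata (0.264). The labels do not say what the replicate number marks, and whether it stands for a batch was not tested.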
